A study of Homo sapiens with 4 samples.

Results

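The proteasome genes of K562 cells were taken by name from a table of transcript abundances. A row belonged to the set when its gene name started with PSMA, PSMB, PSMC, PSMD, PSME, PSMF or PSMG followed by a digit, or was POMP, ADRM1 or SHFM1. This gave 50 of the 11213 genes in the table, with 172 transcripts. Of the 50 genes, 49 encode subunits, activators, an inhibitor or assembly chaperones of the proteasome. The remaining one, PSMC3IP, was taken by its spelling and is no part of the proteasome. It encodes a factor of meiotic recombination, and it was kept out of the groups below. PSMA8 and PSMB11, subunits of testis and thymus, were not among the genes listed.

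K562 is an established line of chronic myelogenous leukaemia cells that carry the BCR-ABL1 fusion and express fetal and embryonic globins. The study asked what PHF8, a demethylase of histone H3 lysine 9, does in this leukaemia. Cells received lentivirus in 5 ug/ml polybrene and were selected with 2 ug/ml puromycin after 72 hours. The 2 control libraries (shControl) came from cells given a control hairpin, and the 2 knockdown libraries (shPHF8) from cells given a hairpin against PHF8. All 4 libraries were labelled as the same line. The same polybrene and puromycin treatment was given for all 4, so lentiviral transduction was shared by both groups. The labels leave unsettled whether shPHF8-1 and shPHF8-2 are repeats with one hairpin or were made with different ones. Nothing in the labels says that libraries of a group came from separate cultures, so the p-values measure only the spread between these samples, which may be technical.

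The proteasome degrades proteins tagged with ubiquitin. Its 20S core is a barrel of outer alpha rings and inner beta rings, and the beta subunits PSMB5, PSMB6 and PSMB7 carry the peptidase sites. The 19S cap on the end of the barrel binds ubiquitin, unfolds the substrate with a ring of ATPases and feeds it into the core. Alternative activators bind the same end of the core: PSME1 and PSME2 form PA28 alpha-beta of the cytoplasm, PSME3 forms the nuclear PA28 gamma ring, and PSME4 is the large nuclear activator PA200. In blood cells, interferon can replace the peptidase subunits by PSMB8, PSMB9 and PSMB10 to build the immunoproteasome.

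Values are in TPM, transcript abundance per length expressed as a share of a fixed library total, and were summed over the transcripts of a gene. TPM keep no number of reads, so the depth behind each value is unknown and the only measure of error is how far the libraries of a group lie apart. A difference is the knockdown mean minus the control mean of log2(TPM + 1), given with its standard error (SE) from limma, which was fitted over the 10972 genes that averaged 1 TPM or more. No gene of the whole table passed Benjamini-Hochberg adjustment at 0.05 in limma, where the smallest adjusted p was 0.0554, while 2414 genes (22.0%) had an unadjusted limma p under 0.05. PHF8 itself was at 25.9 and 22.5 TPM in the controls and at 6.06 and 6.42 TPM in the knockdown, 25.8% of the control level. All 10 of the K562 markers checked were present, and their summed level was 8762 and 9299 TPM in the controls against 13813 and 13186 TPM in the knockdown. The globins HBG1, HBE1 and HBG2 had the highest levels in that sum. Of the 10 markers, 7 were higher in both knockdown libraries, beside 26.0% of all genes tested. GATA1 was lower in both, at 339 and 343 TPM in the controls against 311 and 307 TPM, and BCR and ABL1 overlapped. Of 10 granulocyte and monocyte markers 5 were listed, and MPO, ELANE, CD14, CSF1R and S100A8 were not. All 5 were lower in both knockdown libraries, beside 29.3% of all genes tested. They summed to 142.5 and 161 TPM in the controls against 83.1 and 77.9 TPM in the knockdown. Of the lymphocyte markers, CD3D was at 29.6 and 31.5 TPM in the controls and 14.9 and 10.96 TPM in the knockdown, and CD3E, CD3G, CD2, CD8A, MS4A1, CD79A and CD79B were not listed. Of 7 stromal and endothelial markers 2 were listed, at 9.88 and 13.01 summed TPM against 3.42 and 2.52. COL1A2 carried that sum, at 9.37 and 11.6 TPM against 1.79 and 1.65 TPM, while COL1A1, at 0.505 and 1.43 TPM against 1.63 and 0.866 TPM, overlapped. What part these shifts have in the values below was not tested, and in bulk RNA fewer cells of a type and less RNA per cell cannot be told apart.

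As a whole, the proteasome genes stood at almost the same level in both groups. Summed over the 49 genes they made up 9429 and 9339 TPM in the controls and 9226 and 9359 TPM in the knockdown, so the groups overlapped. The 20S core summed to 4354 and 4402 TPM in the controls and to 4395 and 4393 TPM in the knockdown, 100.4% of the control mean. The 19S cap summed to 3516 and 3441 TPM in the controls and to 3510 and 3617 TPM in the knockdown, 102.5% of the control mean. In neither case were the groups separate. The activators summed to 459 and 445 TPM in the controls and to 355 and 345 TPM in the knockdown, 77.4% of the control mean, with both knockdown libraries below both controls. Relative to the core, the cap was at 0.807 and 0.782 in the controls and at 0.799 and 0.824 in the knockdown, whereas the activators were at 0.105 and 0.101 against 0.0807 and 0.0786. One gene, PSME3, set the direction of the activator total. Without it the other 3 activators summed to 242 and 223 TPM in the controls and to 264 and 261 TPM in the knockdown, which is higher in both knockdown libraries. These totals are given as a description and were not tested.

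**Figure D1:**
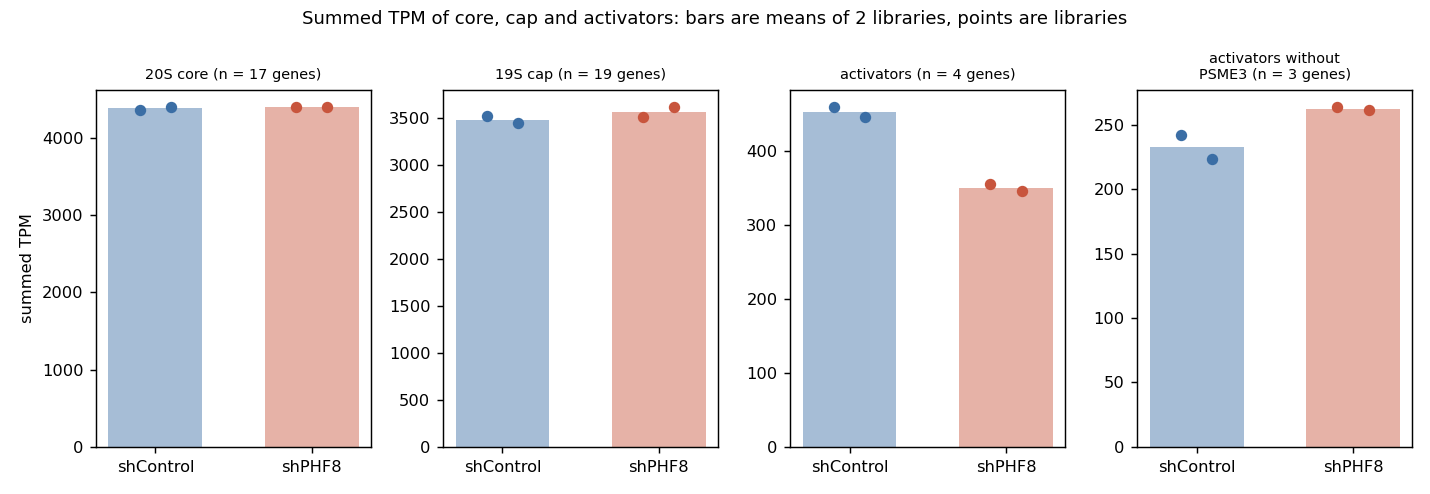
Summed TPM (linear axis from 0) of the 20S core, the 19S cap, the activators and the activators without PSME3; bars are means of 2 libraries and points are single libraries. Core and cap overlap between the groups, the activators are at 345 to 355 TPM in the knockdown against 445 to 459 TPM in the controls, and the order turns when PSME3 is left out.

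Gene by gene the set moved little. The 50 genes had a median absolute difference of 0.12 on the log2 scale against 0.25 over all genes tested, and 46 of 50 lay within 0.5 of 0. They were also abundant, with a median level of 139 TPM against 29.5 TPM over all genes. None was called after adjustment over all genes. An unadjusted limma p under 0.05 was found for 6 of 50 in the higher direction, PSMC3IP included, beside 9.90% of all genes, and for 2 of 50 in the lower direction, PSME3 and PSMD5, beside 12.1% of all genes. Both knockdown libraries lay above both controls in 12 members (26.0% of all genes did so) and below them in 14 (29.3% of all genes), and in 24 the groups overlapped (44.7% of all genes). These shares were near the background or under it. The higher count depended on single libraries: it was 3 without shControl replicate 1 and 1 without shPHF8 replicate 2. The lower count was 5 without shControl replicate 2 and 5 without shPHF8 replicate 1.

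**Figure D2:**
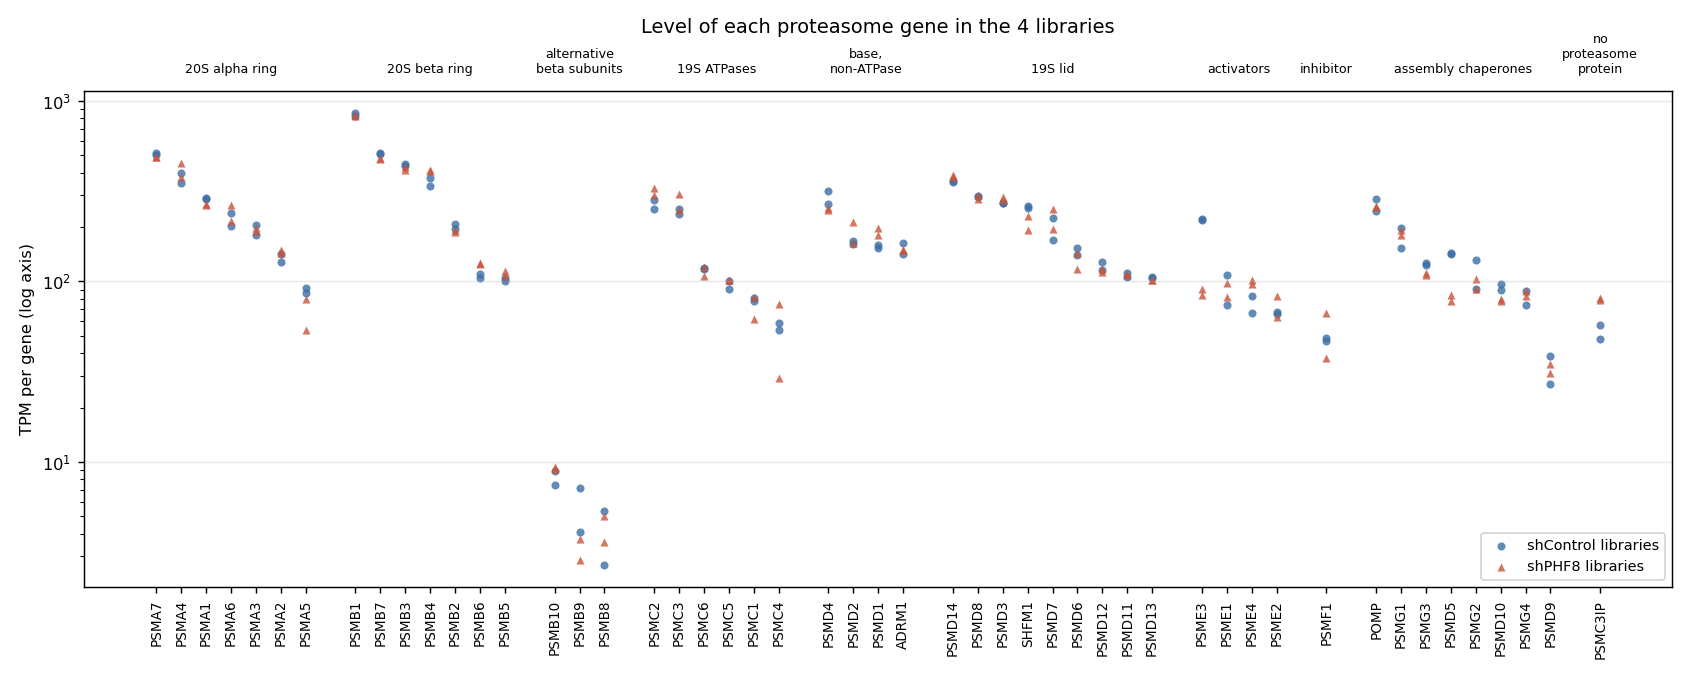
Level of the 50 genes in each of the 4 libraries, in TPM on a log axis, ordered by role and by mean level within a role; circles are shControl and triangles shPHF8 libraries. Most genes have overlapping or adjoining libraries, the alternative beta subunits lie under 10 TPM, and PSME3 and PSMD5 show the widest gap between the groups.

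Of the activators, PSME3 showed the largest difference of the set. It was at 217 and 222 TPM in the controls and at 90.6 and 84.2 TPM in the knockdown. The controls lay within 5 TPM of each other and the groups were far apart. PSME3 was thus the most abundant activator in the controls, and close to PSME1 and PSME4 in the knockdown. Its share of all activator TPM was 47.3% and 49.9% in the controls and 25.5% and 24.4% in the knockdown. The difference was -1.32 ± 0.08 (SE), with 95% limits of -1.54 and -1.11. Its Benjamini-Hochberg adjusted p in limma was 0.0554, and 0.0485 to 0.275 over the alternatives. Quantile normalization alone brought it past the threshold.

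PSME4, the PA200 activator, had values of 66.4 and 83.1 TPM in the controls and 102.1 and 96.9 TPM in the knockdown. Both knockdown libraries were above both controls, by 0.42 ± 0.14 (SE) on the log2 scale (limma with Benjamini-Hochberg adjusted p = 0.204), and by 0.26 without shControl replicate 1. PSME1, the alpha chain of the cytoplasmic PA28, was at 108 and 74.1 TPM in the controls and 98.3 and 81.4 TPM in the knockdown. Its groups overlapped fully. PSME2, the beta chain, was at 67.4 and 65.9 TPM in the controls and 63.5 and 82.7 TPM in the knockdown, again with overlap. The interval of the difference ran from -0.61 to 0.61 for PSME1 and from -0.30 to 0.54 for PSME2, so changes of that size could not be told from none. PSMF1, the inhibitor PI31 that binds the ends of the core, was at 46.7 and 48.5 TPM in the controls. Its knockdown libraries, at 37.6 and 66.9 TPM, lay on either side of them.

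Read per transcript, the lower PSME3 level lay in the model PSME3-002. This transcript (ENST00000293362) was at 147.9 and 150.7 TPM in the controls and at 0.220 and 0.525 TPM in the knockdown. Its mean in the knockdown was 0.250% of the control mean. The difference of -6.78 ± 0.22 (SE) was the 5th largest in size of the 30266 transcripts tested (Benjamini-Hochberg adjusted p = 0.0742 in limma). The other main model, PSME3-001 (ENST00000590720), was at 57.6 and 47.5 TPM in the controls and at 69.1 and 65.8 TPM in the knockdown, above both controls by 0.36 ± 0.15 (SE), and by 0.22 without shControl replicate 2. All PSME3 transcripts other than PSME3-002 summed to 69.5 and 71.6 TPM in the controls and to 90.3 and 83.7 TPM in the knockdown, 123% of the control mean. By these values the difference of the gene lay in PSME3-002. The sum of its other transcripts, though not each of them, stood higher in both knockdown libraries.

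Expressed as a share of the gene, PSME3-002 made up 68.0% and 67.8% of PSME3 in the controls and 0.243% and 0.623% in the knockdown. PSME3-001 made up 26.5% and 21.4% in the controls and 76.2% and 78.1% in the knockdown. The share differences were -67.5 ± 3.51 percentage points (SE) for PSME3-002 (limma with Benjamini-Hochberg adjusted p = 0.0839) and 53.3 ± 4.10 points for PSME3-001 (adjusted p = 0.115 in limma with Benjamini-Hochberg adjustment). Of 21080 transcript shares tested none was called, and 1470 (6.97%) had an unadjusted limma p under 0.05. Among the members 4 of 86 shares did so: those of PSME3-001, PSME3-002, PSMB8-001 and PSMB8-002. PSMB8 is at only a few TPM, and its transcripts were named after their values were seen.

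**Figure D3:**
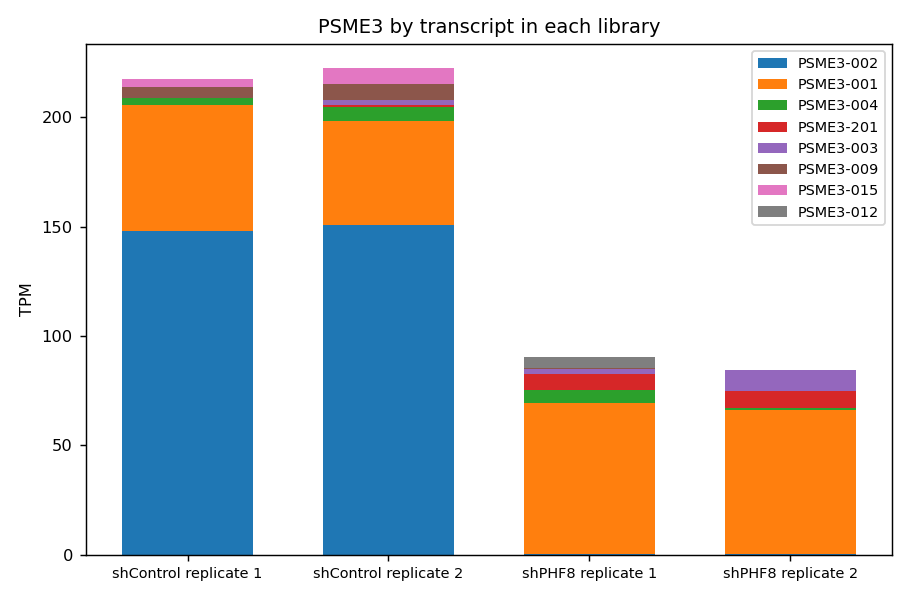
TPM of PSME3 in each library, stacked by transcript; the height of a bar is the gene's TPM. The segment of PSME3-002 fills 147.9 and 150.7 TPM of the control bars and less than 1 TPM of the knockdown bars, while the segment of PSME3-001 is 47.5 to 69.1 TPM high.

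The remaining PSME3 transcripts were minor in every library. PSME3-201 was at 0.0526 and 0.775 TPM in the controls and 7.43 and 7.79 TPM in the knockdown. PSME3-009 went the other way, at 5.10 and 7.64 TPM in the controls and 0.318 TPM and a listed 0 in the knockdown. PSME3-015, at 3.39 and 6.99 TPM in the controls, was listed at 0 in both knockdown libraries. These 3 and PSME3-002 were the 4 of 8 tested PSME3 transcripts with an unadjusted limma p under 0.05, beside 10.3% of all transcripts. PSME3-003 was at 0.268 and 2.09 TPM against 2.27 and 9.28 TPM, and PSME3-004 was at 3.08 and 6.60 TPM against 5.86 and 0.805 TPM, with overlap. PSME3-012 was listed at 0 in all but shPHF8 replicate 1, where it was at 5.42 TPM, and PSME3-202 was listed at 0 in all 4 libraries.

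PSME3-001 and PSME3-002 differ in an inner exon, at the 3′ end and in where the first exon starts. Other models of PSME3 differ further, at the 5′ end or in the inner exons they hold. GENCODE 29, on build GRCh38, holds 17 PSME3 transcripts, of which 9 are in the deposited table and 8 were not analysed here. Transcript names in this text are those of the deposited table, and GENCODE 29 gives the same identifiers other names. There PSME3-002 is called PSME3-201 and PSME3-001 is called PSME3-210. The PSME3-201 of this text (ENST00000541124) is PSME3-203 there, and its PSME3-202 (ENST00000622892) is PSME3-217. PSME3-002 is 3144 nt long in 11 exons and extends 2182 nt past its last coding base, stop codon included. PSME3-001 is 998 nt long in 11 exons, and its model ends with the stop codon, 3 nt past the last coding base. PSME3-002 is also the only 1 of the 17 with the longer form of exon 7. That form adds 39 bases, 13 codons in frame, at chr17:42838692-42838730 on the plus strand of GRCh38 (bases 567 to 605 of the transcript). The sequences below, read 5′ to 3′ from the GENCODE 29 transcripts, show the difference with 30 bases on either side, and capitals mark the added bases.
PSME3-002: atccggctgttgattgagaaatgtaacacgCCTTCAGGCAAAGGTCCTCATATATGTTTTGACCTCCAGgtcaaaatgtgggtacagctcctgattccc
PSME3-001: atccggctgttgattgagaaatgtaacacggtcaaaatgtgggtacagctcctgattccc
The added bases lie in the coding part of the transcript, so by the annotation the models encode PA28 gamma chains of unequal length.

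**Figure D4:**
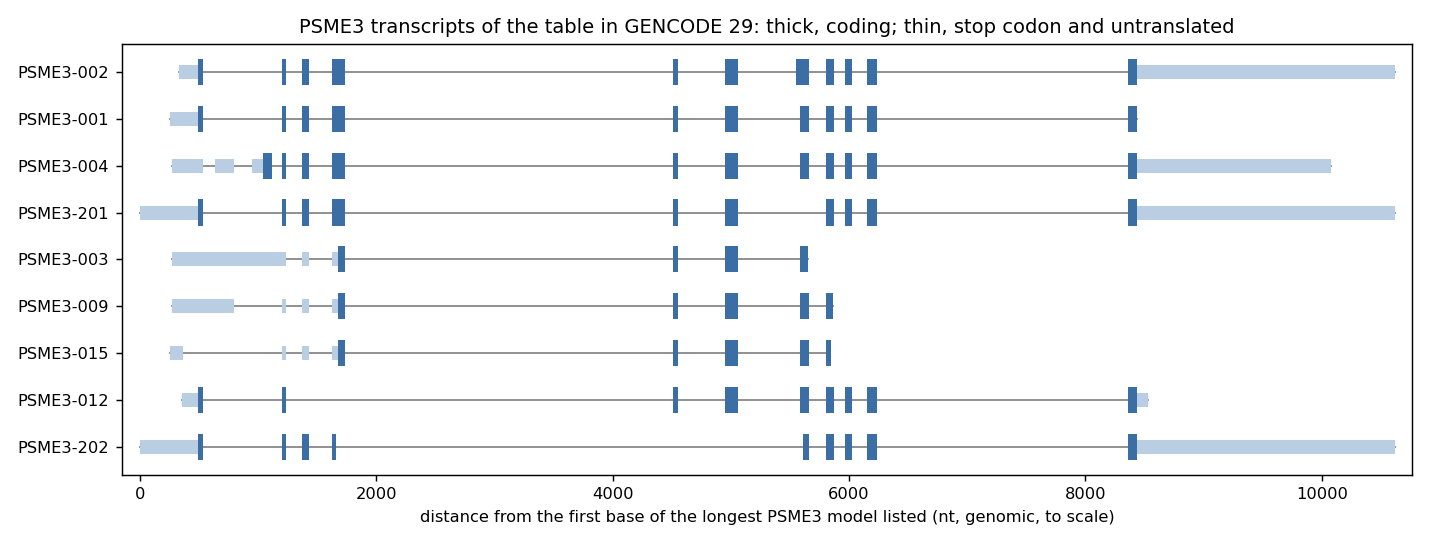
Exons of the 9 PSME3 transcripts of the table, under the table's names, as GENCODE 29 draws them. The axis is the genomic distance in nt from the first base of the longest model. Thick boxes are coding, thin boxes the stop codon and untranslated parts, and lines introns. PSME3-002 is alone in starting exon 7 further to the left, and it shares the long last exon with PSME3-004, PSME3-201 and PSME3-202.

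Grouped by the 3′ end, the 4 transcripts with over 1000 nt of the last exon summed to 151 and 158 TPM in the controls and to 13.5 and 9.12 TPM in the knockdown, 7.32% of the control mean. The 5 others summed to 66.4 and 64.3 TPM in the controls and to 77.1 and 75.1 TPM in the knockdown, 116% of the control mean. TPM are divided by transcript length, so a move from a long to a short model also changes how many reads a TPM stands for. TPM times length, added over the 9 transcripts, was 539 and 558 TPM kb in the controls and 119.8 and 108.6 TPM kb in the knockdown, 20.8% of the control mean. On that scale the knockdown stood lower than in gene-level TPM, where PSME3 was at 39.8% of the control mean. How the authors' software divided reads between PSME3-002 and PSME3-001 is not recorded in the table, and the added 39 bases and most of the last exon are the parts of PSME3-002 that PSME3-001 lacks.

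Splits between isoforms also varied within groups, in the set as in the whole table. Of the 163 member transcripts tested, 21.5% lay over 2-fold apart in TPM + 1 between the controls, 22.7% between the knockdown libraries and 20.9% between the group means, beside 24.3%, 24.0% and 20.6% of all transcripts. For genes of the set the numbers were 0, 1 and 1 of 50, beside 5.93%, 5.48% and 5.85% of all genes. The examples in this paragraph were picked after their values were seen. PSME1-009 was at 86.3 TPM in shControl replicate 1 and at 9.17, 15.4 and 8.42 TPM in the other 3 libraries, while PSME1-001 was at 14.5 TPM in that library and at 53.1, 71.9 and 66.0 TPM in the others. PSMG2-002 was at 71.6 TPM in the same library and at 11.1, 18.7 and 15.3 TPM in the others. PSMA4-016 was at 186 TPM in shPHF8 replicate 2 and between 4.01 and 4.83 TPM elsewhere. PSME3-002, which was read by rule, had like values within each group and lay far apart between them. Other transcripts, such as PSMD10-006 and SHFM1-021 at a few TPM, were also alike within groups and apart between them.

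Among the assembly chaperones, which guide subunits into the growing core and cap and then leave, PSMD5 stood apart. PSMD5 (S5b) binds the ATPase PSMC2 during assembly of the base. It was at 141.9 and 142.6 TPM in the controls and at 84.4 and 77.8 TPM in the knockdown. The controls were nearly identical, and the knockdown was at 57.0% of their mean. The difference was -0.80 ± 0.08 (SE), with 95% limits of -1.03 and -0.57. Its Benjamini-Hochberg adjusted p in limma was 0.0677, and 0.0649 to 0.275 over the alternatives. Here a single transcript carried nearly the whole gene in both groups: PSMD5-001 was at 133.7 and 138.0 TPM in the controls and at 77.9 and 72.0 TPM in the knockdown.

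The other 7 chaperones had no unadjusted limma p under 0.05. PSMD10 (gankyrin), which holds the ATPase PSMC4, was at 96.5 and 89.7 TPM in the controls and 77.9 and 80.0 TPM in the knockdown, lower in both by 0.23 ± 0.09 (SE) on the log2 scale. PSMG3, a chaperone of the alpha ring, was at 123.6 and 126.2 TPM in the controls and 108.8 and 110.8 TPM in the knockdown. POMP, which leads the beta ring onto the alpha ring, was the most abundant chaperone at 246 and 287 TPM in the controls. Its knockdown libraries, at 259 and 260.0 TPM, lay between the controls. PSMD9, the least abundant, was at 26.9 and 38.8 TPM against 30.9 and 34.6 TPM, with overlap. In sum, the 8 chaperones were at 1053 and 1003 TPM in the controls and 928 and 936 TPM in the knockdown, 90.7% of the control mean. Most of that gap was the PSMD5 difference.

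In the 20S core, none of 17 genes was called, and 2 (11.8%) had an unadjusted limma p under 0.05, both in the higher direction, near the 9.90% of all genes. PSMB6, the caspase-like subunit, was at 104 and 109 TPM in the controls and 127 and 125 TPM in the knockdown. PSMB4, a structural beta subunit, was at 338 and 373 TPM in the controls and 409 and 414 TPM in the knockdown. These were higher in both knockdown libraries by 0.24 ± 0.08 and 0.21 ± 0.07 (SE) on the log2 scale. PSMB5, the chymotrypsin-like subunit, was at 99.8 and 104 TPM in the controls and 114 and 107 TPM in the knockdown, also above both controls, by 0.12 ± 0.08 (SE). PSMB7, the trypsin-like subunit, had the opposite order, at 509 and 513 TPM in the controls and 481 and 478 TPM in the knockdown. Together PSMB5, PSMB6 and PSMB7 summed to 713 and 726 TPM in the controls and 722 and 709 TPM in the knockdown.

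PSMB1, a structural beta subunit, was the most abundant gene of the set at 849 and 825 TPM in the controls and 829 and 818 TPM in the knockdown. Of the alpha ring, PSMA7 was highest at 516 and 499 TPM in the controls and 487.9 and 488.4 TPM in the knockdown. PSMA5 was lowest, at 86.3 and 91.3 TPM in the controls and 80.2 and 53.7 TPM in the knockdown. Its knockdown libraries were below both controls but far from each other. PSMA1 was at 290.6 and 284.8 TPM against 266.7 and 264.3 TPM, lower in both by 0.12 ± 0.06 (SE) on the log2 scale. Members of one ring thus differed several-fold in TPM although each has a single place in the ring.

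The immunoproteasome subunits were scarce in every library. PSMB8 was at 2.70 and 5.32 TPM in the controls and 5.03 and 3.60 TPM in the knockdown. PSMB9 was at 7.16 and 4.12 TPM in the controls and 3.75 and 2.87 TPM in the knockdown, lower in both, and PSMB10 was at 8.95 and 7.41 TPM against 9.35 and 9.14 TPM. Their sum relative to PSMB5, PSMB6 and PSMB7, which they replace, was 0.0264 and 0.0232 in the controls and 0.0251 and 0.0220 in the knockdown. The groups overlapped, and the constitutive peptidase genes made up nearly all of the TPM in each library.

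Of the 19S cap, none of 19 genes was called, 2 (10.5%) had an unadjusted limma p under 0.05, both higher and near the 9.90% of all genes, and all 19 lay between -0.29 and 0.27 on the log2 scale. PSMD1, the large scaffold subunit of the base, was at 153.5 and 158.6 TPM in the controls and 180.0 and 196.9 TPM in the knockdown, higher in both by 0.27 ± 0.08 (SE). PSMC2, an ATPase, was at 280.3 and 252.8 TPM in the controls and 302.3 and 328.8 TPM in the knockdown, higher in both by 0.24 ± 0.09 (SE). PSMC3, another ATPase, was at 253 and 236 TPM in the controls and 248 and 305 TPM in the knockdown, with overlap. PSMC4 was the lowest ATPase, at 59.0 and 54.0 TPM in the controls. Its knockdown libraries were 74.7 and 28.99 TPM, the only pair of libraries of one group in the set that differed by more than 2-fold.

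The ubiquitin receptors PSMD4 and ADRM1 of the base gave no clear difference. PSMD4 (RPN10) was at 314 and 267 TPM in the controls and 248.7 and 254.7 TPM in the knockdown, lower in both by 0.20 ± 0.10 (SE) on the log2 scale. The PSMD4 difference was -0.08 without shControl replicate 1 and -0.32 without shControl replicate 2. ADRM1 (RPN13) was at 142 and 162 TPM in the controls and 149.3 and 149.0 TPM in the knockdown. In the lid, the deubiquitinase PSMD14 (RPN11) was highest, at 357 and 355 TPM in the controls and 380 and 388 TPM in the knockdown, and PSMD13 was lowest, at 104.8 and 106.2 TPM against 101.6 and 101.2 TPM. SHFM1 (DSS1), the smallest subunit, which also binds BRCA2, was at 253.5 and 261.5 TPM in the controls and 229.5 and 193.5 TPM in the knockdown. It was lower in both by 0.29 ± 0.11 (SE) on the log2 scale, and its unadjusted limma p lay just above the threshold. The SHFM1 difference was -0.17 without shPHF8 replicate 2.

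**Figure D5:**
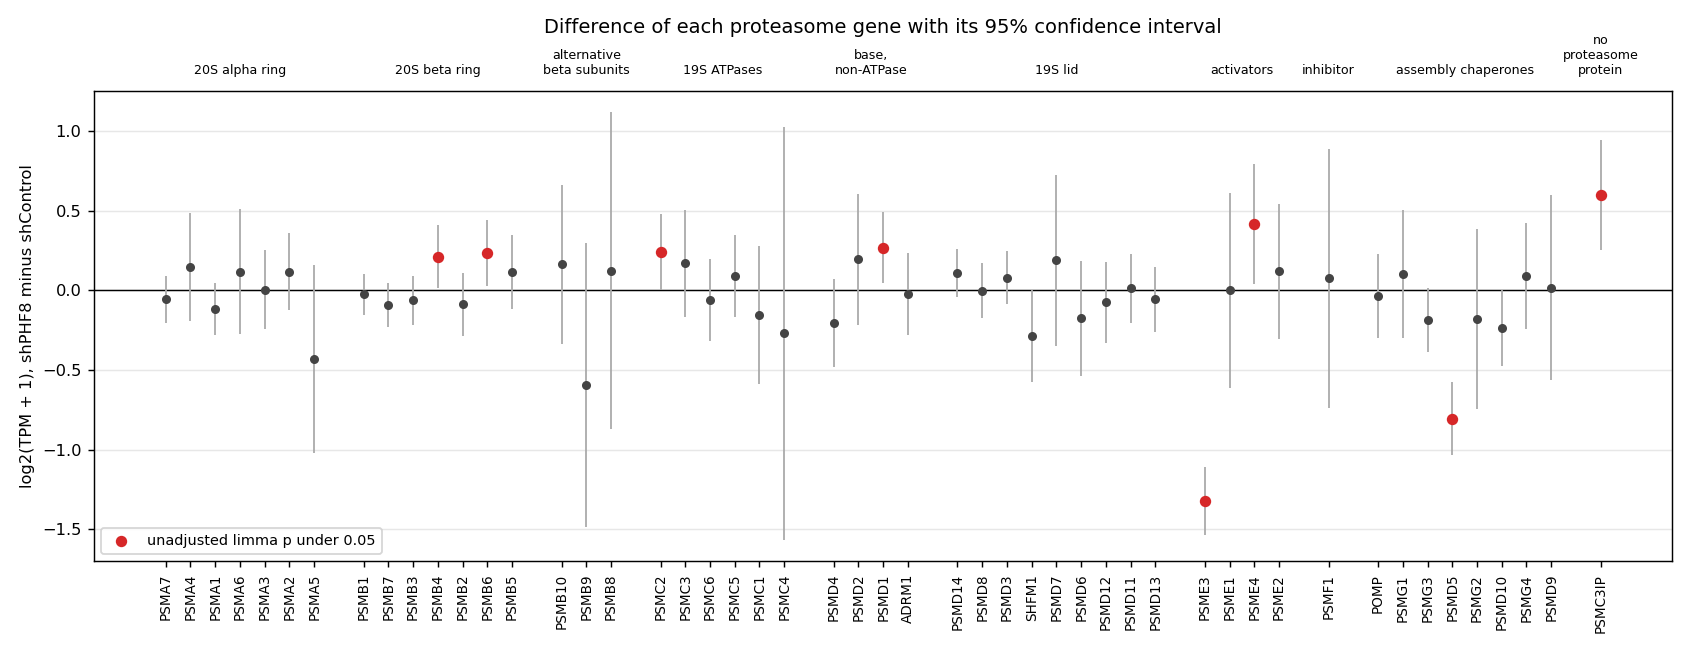
Difference of each of the 50 genes (shPHF8 minus shControl, log2(TPM + 1) scale) with its 95% confidence interval from limma, ordered as in the plot of levels; red points have an unadjusted limma p under 0.05. PSME3 at -1.32 and PSMD5 at -0.80 lie below the rest, and most intervals of core and cap genes include 0.

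PSMC3IP, the gene taken by spelling alone, was at 57.4 and 47.8 TPM in the controls and 81.3 and 78.4 TPM in the knockdown. It had the largest difference in the higher direction of the 50 genes, 0.60 ± 0.13 (SE) on the log2 scale (limma with Benjamini-Hochberg adjusted p = 0.119). It says nothing of the proteasome groups.

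Over all transcripts of the set, 18 of 163 tested had an unadjusted limma p under 0.05, 8 higher and 10 lower, beside 4.91% and 5.38% of all transcripts. Of these 14 belonged to members other than PSME3, and no member transcript was called after adjustment over all transcripts, where 1 transcript (0.00330%) was. PSMD1-003, which made up 49.4% to 57.4% of PSMD1, was at 82.8 and 78.4 TPM in the controls and 103 and 106 TPM in the knockdown. The transcripts of PSMD10 did not move alike: PSMD10-001 was at 83.0 and 80.0 TPM against 60.5 and 64.7 TPM, PSMD10-002 was at 7.57 and 5.84 TPM against 15.2 and 12.3 TPM, and PSMD10-006 was at 3.77 and 2.69 TPM against a listed 0 in both. PSMF1-006 was at 12.3 and 24.3 TPM in the controls and 5.57 and 6.12 TPM in the knockdown. SHFM1-021, at 3.55 and 2.87 TPM in the controls, was listed at 0 in the knockdown, and PSMC5-020, listed at 0 in the controls, was at 2.54 and 3.29 TPM in the knockdown.

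Genes around the proteasome were read from 3 lists. The first held 17 genes grouped under proteasome gene regulation, of which 16 were tested. It also held AKIRIN2, whose role given below is another. The median difference of the list was -0.12 against -0.02 over all genes. In the higher direction 2 were at an unadjusted limma p under 0.05 and in the lower 1, beside 9.90% and 12.1% of all genes. NFE2L1 (NRF1), the transcription factor that raises proteasome genes when degradation is impaired, was the lower one. It was at 119.1 and 116.7 TPM in the controls and 102.2 and 90.4 TPM in the knockdown, a difference of -0.29 ± 0.10 (SE) (limma with Benjamini-Hochberg adjusted p = 0.203). DDI2, the protease that activates NFE2L1, was at 44.8 and 46.3 TPM in the controls and 61.2 and 65 TPM in the knockdown, 0.46 ± 0.10 (SE) higher. AKIRIN2, which brings proteasomes into the nucleus, was at 82.0 and 87.3 TPM against 70.3 and 75.5 TPM.

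Of 21 proteins that bind the proteasome or carry substrates to it, 8 were at an unadjusted limma p under 0.05 in the higher direction, DDI2 of the first list among them, and 1 in the lower, again beside 9.90% and 12.1% of all genes. Their median difference was 0.26 against -0.02 over all genes. UBQLN1, a shuttle of ubiquitinated proteins, was at 43.2 and 33.1 TPM in the controls and 69.1 and 68.9 TPM in the knockdown, 0.85 ± 0.16 (SE) higher on the log2 scale (limma with Benjamini-Hochberg adjusted p = 0.104). The lower gene was KPNA2, a nuclear import receptor, at 277 and 285 TPM in the controls and 218 and 208 TPM in the knockdown. PAAF1, which binds the ATPases outside the complex, was at 48.1 and 47.5 TPM against 46.4 and 41.1 TPM. Of 20 genes of ubiquitin and its transfer, 19 were tested, 0 were at an unadjusted limma p under 0.05 in the higher and 3 in the lower direction, beside the same background, with a median of -0.05. UBE2D2, a ubiquitin-conjugating enzyme, was at 148.5 and 147.3 TPM in the controls and 111.6 and 118.2 TPM in the knockdown. RPS27A, a ubiquitin precursor fused to a ribosomal protein, was at 2265 and 2219 TPM in the controls and 1993 and 1706 TPM in the knockdown. UBE2K and SKP1 were higher in both knockdown libraries, at 244 and 197 TPM against 180 and 167 TPM and at 201 and 237 TPM against 174 and 184 TPM.

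Promoter sequences were read from RefSeq on GRCh38.p14, from 250 bases before to 50 bases after each listed start of a gene. A window was found for 43 of the 49 genes, and none for PSMA7, PSMB1, PSMB6, PSMB7, PSMD4 and PSMG3. Some genes had several starts, so the 43 genes had 55 windows. A gene counted as a match when any of its windows matched, as with PSMA4, PSMC5 and SHFM1, whose other windows did not match TGACNNNGC. The letters TGACNNNGC, core of the antioxidant response element to which NFE2L1 and NFE2L2 are known to bind and which some sites of MAF and AP-1 also fit, were searched on both strands. They were found in 17 of 43 members (39.5%) and in 16.1% of 27305 genes with a window. By group they were in 3 of 13 core, 7 of 18 cap, 3 of 4 activator and 4 of 7 chaperone genes, PSMD5 among the last. The activators with the letters were PSME1, PSME2 and PSME4. The letters CCAAT, on either strand, were found in 21 of 43 members (48.8%) and in 39.7% of genes, and among the activators in PSME3. The 250 bases before the start are shown for the members with the largest differences of the activators and chaperones, with capitals marking TGACNNNGC or CCAAT as found on either strand. They lie at chr17:42833147-42833396 on the plus strand for PSME3, chr9:120842923-120843172 on the minus strand for PSMD5 and chr2:53970994-53971243 on the minus strand for PSME4.
PSME3: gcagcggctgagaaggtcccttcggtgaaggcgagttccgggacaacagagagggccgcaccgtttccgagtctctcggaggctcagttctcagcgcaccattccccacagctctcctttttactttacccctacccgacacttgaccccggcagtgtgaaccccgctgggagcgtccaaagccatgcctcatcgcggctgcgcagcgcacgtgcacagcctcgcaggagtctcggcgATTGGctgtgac
PSMD5: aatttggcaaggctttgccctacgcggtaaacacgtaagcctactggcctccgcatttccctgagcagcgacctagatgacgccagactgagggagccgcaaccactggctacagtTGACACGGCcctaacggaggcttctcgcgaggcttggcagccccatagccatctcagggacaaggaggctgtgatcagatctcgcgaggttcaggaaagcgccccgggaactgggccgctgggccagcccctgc
PSME4: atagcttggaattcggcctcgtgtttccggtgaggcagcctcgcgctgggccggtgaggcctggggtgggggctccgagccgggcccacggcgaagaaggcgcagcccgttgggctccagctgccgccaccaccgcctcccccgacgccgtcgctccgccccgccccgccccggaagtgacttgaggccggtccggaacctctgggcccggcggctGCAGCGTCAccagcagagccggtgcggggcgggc
A match of letters is a description of the window and not a site. PSME3 and PSMD5, lower in the knockdown, differ in both motifs, and no factor's binding was measured here.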

How the data were processed

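RNA was sequenced from 4 K562 libraries, 2 per group, grouped by their titles and treatments. Transcript abundances in TPM, per the file headers, were deposited as 1 table whose columns each add to 1000000. How the authors made the signal values of 4 further deposited columns is not stated per the file headers; they were a constant multiple of TPM within a library and were not used. Per the submitters' processing notes HISAT2 2.0.4, StringTie 1.2.3 and build hg19 were used. The role of each, the annotation and the strand setting were not given in the sources used here. How reads shared by isoforms or near-identical genes were divided is not recorded.

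TPM were summed per gene name. Genes (10972; 241 others not tested), transcripts and transcript shares (5 to 95% of a gene) were fitted over the whole table with limma 3.58.1 in R 4.3.3, two-sided, on log2(TPM + 1) or percent. Calls needed a Benjamini-Hochberg adjusted p under 0.05; levels of at least 1 TPM on average entered. A fold on this scale understates the change of low genes. The gene fit had 2 residual degrees of freedom and 2.16 from the prior. The script was tested on simulated data. Python 3.11.15 with pandas 2.3.3 made the tables, and matplotlib 3.10.9 the figures. Transcript models came from GENCODE 29 by identifier.

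Members and lists were chosen with earlier results of these data known. Named by rule were the activators, PSMF1, the peptidase subunits and their replacements, the 8 members with the smallest p in each direction, the highest and lowest member of each role, every PSME3 transcript, the 8 other transcripts with the smallest p, and NFE2L1 and 2 genes per direction and list. Some of the named items are not reported here. The alternatives changed the pseudocount, the minimum, the scaling, the trend, the replicate block and the libraries used.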

Additional observations from a re-analysis of the deposited data

How the results depend on the processing

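The TPM hold no read depth, so no counting error is known, and 2 libraries per group limit every value. Of 61 named results under 654 alternatives, 641 did not reverse in direction. These include PSME3-012 without shPHF8 replicate 1, where its difference was 0 and had no direction. The 13 reversals were in 9 results. PSME1 turned from 0.00 to -0.0257 with quantile normalization; leaving out 1 library each time gave ranges of -0.27 to 0.27 for PSME1, -0.0674 to 0.31 for PSME2, -0.33 to 0.48 for PSMF1, -0.26 to 0.51 for PSMB8, -0.94 to 0.40 for PSMC4, -0.12 to 0.0697 for ADRM1, -0.15 to 0.0759 for POMP, -0.24 to 0.27 for PSMD9 and -1.62 to 0.30 for PSME3-004. Over all genes, 37 were called with quantile normalization, 17 higher and 20 lower and PSME3 (-1.35, limma with Benjamini-Hochberg adjusted p = 0.0485) among them, and 0 with every other alternative. Of transcripts 1 was called, 4 with a minimum of 5 TPM or with quantile normalization, and 0 without the trend, with the replicate block or without any 1 of the 4 libraries. Members at an unadjusted limma p under 0.05 in the higher direction numbered 6, with 3 under quantile normalization, 1 without the trend, 2 with the replicate block and 1 to 5 without 1 library. In the lower direction they numbered 2, with 4 under quantile normalization and 2 to 5 without 1 library. The core total differed by 0.01 on the log2 scale, by 0.0208 with median-of-ratios scaling and by -0.0025 to 0.0131 without 1 library. The cap total differed by 0.04, its median over members by -0.0002, and the total by 0.0132 to 0.0566 without 1 library. The activator total differed by -0.37, by 0.18 without PSME3, by 0.0601 as a median over members and by -0.39 to -0.35 without 1 library. With the replicate number as a block, the adjusted p of PSME3 and PSMD5 was 0.193 (limma with Benjamini-Hochberg adjustment). The numbers were not taken to pair libraries: the replicate differences of the groups correlated at r = -0.029 over 10972 genes, which are not independent replicates. The causes of these shifts were not tested.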
